A study of Mus musculus with 12 samples.

Results

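Chains of closely spaced Runx1b DamID regions are described here. A chain was a run of 3 or more regions on the same autosome in which each gap between neighbours was 10 kb or less. This rule gave 258 chains holding 876 regions, out of 7695 regions on the autosomes and 8133 in the deposited table, which assigns them to 5867 genes. The share of autosomal regions in chains was 11.4% (95% Clopper-Pearson interval 10.7 to 12.1). The 438 regions on the sex chromosomes were left out. The members were thus chosen by the positions of regions that had themselves been called from sequencing reads, and the number of chains, their gaps and their spans describe that choice, with no test.

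The study asked where Runx1b sits in the genome of haemogenic endothelium, the vessel-lining population that gives rise to blood cells. The cells came from 2 lines of mouse embryonic stem cells of strain 129, both with the genotype runx1-/-, so neither made functional Runx1 of its own. The line iRunx1b::Dam_runx1-/- carried Runx1b fused to the Dam methylase and gave 6 libraries, and the line iDam_runx1-/- carried Dam alone and also gave 6. In both lines FLK1+ cells from embryoid bodies spent 2 days in liquid blast culture. The embryoid bodies were of the same age in both lines. In each line 2 libraries then came from cKIT+ TIE2+ CD41- cells sorted by flow cytometry and 4 from magnetic selection of FLK1+ cells. Each line had 3 libraries named biological replicates and 3 named technical replicates, although the libraries named technical replicates came from another sort than those they repeat. The fusion was thus read in cells that lack the endogenous protein, and a difference between the lines can also be a difference between the cell lines. Binding regions hold no expression values, so the identity of the cells was not checked against marker genes.

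Runx1 is a DNA-binding transcription factor of the core-binding factor family and is required for blood cells to arise from haemogenic endothelium. In DamID, the fused Dam enzyme marks GATC sequences near its binding partner's sites by methylating their adenine, and fragments cut at marked sites are amplified and read. The signal can extend over kilobases around a binding place, and open chromatin is also methylated by Dam alone. Transcription factors often occupy several enhancers of one gene, and such groups of neighbouring sites are known at genes that define a cell type.

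The table gave 1 read count per gene, summed over the regions assigned to it, and none per library. The depth of single libraries is therefore unknown, replicate error cannot be given for any value, and reads per kilobase of region are not an enrichment over Dam alone. The level of any gene could include Dam background, and its part was not tested. Poisson intervals are given at 95% and cover counting error only.

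The promoters of genes in the chains are shown because they are the sequences nearest to the assigned genes that could be read, from 250 bases before to 50 bases after the start in RefSeq (GRCm38.p6). Capitals mark the core RUNX motif, searched as TGTGGT or TGCGGT on both strands (ACCACA or ACCGCA on the other strand), and the Dam target GATC, which reads the same on both strands. No match overlapped another. The regions are on mm9, so whether any region covers one of these promoters was not analysed. The sequences of the regions themselves are not given, since no genome of that build was used here. Ak1, Pik3cb and E2f6 followed the rule for named genes, and Eng, Tal1 and Smad6 were added after their values were seen. Ak1 has 4 RefSeq start entries and Tal1 has 2, of which 1 is shown for each.
Ak1 (chr2:32621508-32621807, plus strand): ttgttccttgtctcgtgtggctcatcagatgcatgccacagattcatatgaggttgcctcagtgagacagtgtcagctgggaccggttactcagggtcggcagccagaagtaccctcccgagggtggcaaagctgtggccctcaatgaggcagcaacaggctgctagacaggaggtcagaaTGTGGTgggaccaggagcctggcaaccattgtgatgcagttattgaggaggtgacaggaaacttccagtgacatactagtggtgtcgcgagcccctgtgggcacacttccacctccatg
Eng (chr2:32646345-32646644, plus strand): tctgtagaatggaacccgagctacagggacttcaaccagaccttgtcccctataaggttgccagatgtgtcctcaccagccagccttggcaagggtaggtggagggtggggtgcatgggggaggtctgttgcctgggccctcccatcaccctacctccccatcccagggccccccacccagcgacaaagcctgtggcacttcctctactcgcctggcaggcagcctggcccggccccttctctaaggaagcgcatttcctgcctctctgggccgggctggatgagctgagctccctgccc
Pik3cb (chr9:99140162-99140461, minus strand): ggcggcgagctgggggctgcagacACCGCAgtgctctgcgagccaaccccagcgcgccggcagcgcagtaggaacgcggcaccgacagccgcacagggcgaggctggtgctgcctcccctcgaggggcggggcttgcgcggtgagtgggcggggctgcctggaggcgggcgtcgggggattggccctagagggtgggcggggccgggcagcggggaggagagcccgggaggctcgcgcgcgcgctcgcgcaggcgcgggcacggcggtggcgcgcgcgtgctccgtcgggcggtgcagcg
E2f6 (chr12:16810715-16811014, plus strand): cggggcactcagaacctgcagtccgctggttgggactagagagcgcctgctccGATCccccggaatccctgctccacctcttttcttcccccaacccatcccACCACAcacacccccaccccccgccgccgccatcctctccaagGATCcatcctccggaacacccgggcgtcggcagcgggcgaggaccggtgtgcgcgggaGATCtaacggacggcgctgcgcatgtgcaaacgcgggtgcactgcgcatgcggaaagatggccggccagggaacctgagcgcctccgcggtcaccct
Tal1 (chr4:115056176-115056475, plus strand): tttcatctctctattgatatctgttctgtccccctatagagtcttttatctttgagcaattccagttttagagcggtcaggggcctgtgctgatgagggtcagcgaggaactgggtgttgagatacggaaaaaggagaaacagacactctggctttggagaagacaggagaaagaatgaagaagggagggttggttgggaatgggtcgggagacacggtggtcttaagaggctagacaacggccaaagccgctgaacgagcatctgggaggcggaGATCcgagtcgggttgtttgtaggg
Smad6 (chr9:64022010-64022309, minus strand): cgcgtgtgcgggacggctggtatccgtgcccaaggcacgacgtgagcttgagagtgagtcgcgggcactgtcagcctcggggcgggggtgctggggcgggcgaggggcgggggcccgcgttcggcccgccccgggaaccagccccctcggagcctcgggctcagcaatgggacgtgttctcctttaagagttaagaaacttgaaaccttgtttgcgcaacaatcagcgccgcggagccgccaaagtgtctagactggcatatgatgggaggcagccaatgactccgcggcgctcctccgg

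Among 32851 RefSeq promoters of 300 bases, 16.8% held TGTGGT, 6.45% held TGCGGT and 48.0% held GATC on either strand. Ak1 held 1 TGTGGT, E2f6 held 1 as ACCACA together with 3 GATC, and Pik3cb held 1 TGCGGT as ACCGCA. Tal1 held 1 GATC and neither RUNX motif. The windows of Eng and Smad6 held none of these letters. These matches describe the windows only.

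Most chains were short. Of the 258 chains, 186 had 3 regions, 48 had 4, 19 had 5, 4 had 6 and 1 had 7. The median chain spanned 19.35 kb (quartiles 15.5 and 23.6 kb), from 7.65 kb at Pitpnm2, a phosphatidylinositol transfer protein gene, to 52.95 kb at Ndst1, which encodes a heparan sulfate sulfotransferase. Regions covered a median of 47.6% of a chain (quartiles 40.9 and 55.7%), or 9 kb. The least covered chain was at Pmp22, a myelin protein gene, with 23.4%, and the most covered was at Gata3, a transcription factor gene, with 90.5%. The median chain region was 2400 bp wide (quartiles 1800 and 3450 bp), and the median of the other 6819 autosomal regions was 2100 bp (quartiles 1700 and 2850 bp). The widths of both sets overlapped over nearly their whole range.

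Between all neighbouring autosomal regions there were 7676 gaps with a median of 66.4 kb, and 1356 of them (17.7%) were 10 kb or less. Of these short gaps, 618 lay inside chains and 738 joined exactly 2 regions, which are not counted as chains. Inside chains the median gap was 4275 bp (quartiles 2250 and 6600 bp), with 360 gaps (58.3%) at 5 kb or less and 24 (3.88%) under 1 kb. The widest gaps that still linked regions were 9.95 kb at Pcdhga11, a protocadherin, 9.95 kb at Tead1 and 9.9 kb at Zmiz1, a transcriptional coregulator. The narrowest gaps that did not link regions were 10.05 kb at Ssbp3, at the tyrosine kinase gene Fgr, and between Imp3 and Snupn.

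**Figure D1:**
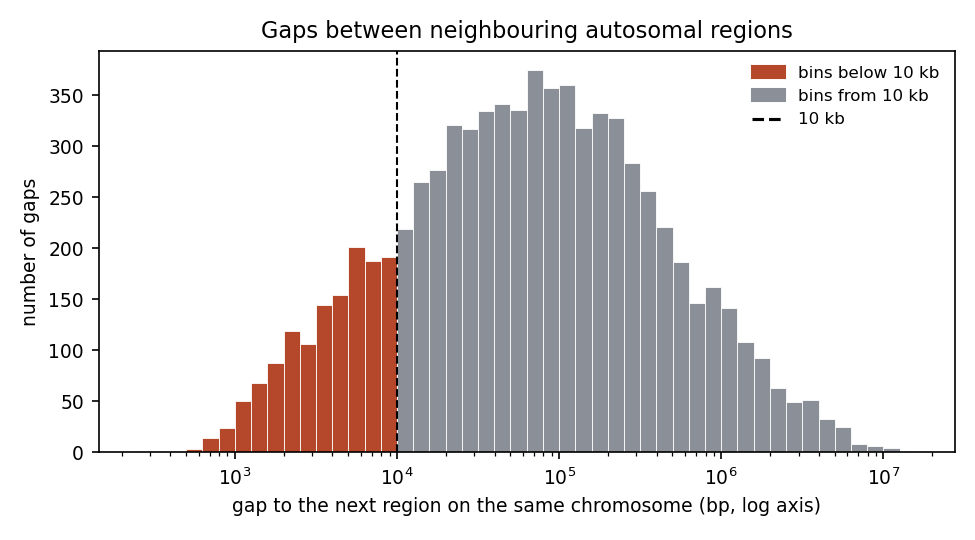
Number of gaps between neighbouring autosomal regions by gap size in base pairs, on a log axis; bins below 10 kb are red and bins from 10 kb grey, with a dashed line at 10 kb. Of 7676 gaps, 1356 were 10 kb or less, and the median lay at 66.4 kb.

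The chain with the most regions lay in Tead1, which encodes the DNA-binding partner of the co-activators YAP and TAZ. Its 7 regions ran over 46.45 kb at chr7:119823781-119870231 (mm9), with widths from 1.45 to 5.3 kb and gaps from 1.2 to 9.95 kb. A second chain of 4 regions began 25.5 kb further on, at chr7:119895731-119925181. Together they held 11 of the 14 regions of Tead1. Over all 14 the gene stood at 831 reads per kb (823 to 840), and the level of every gene below is likewise taken over all of its regions.

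A chain of 6 regions on chromosome 2 joined neighbouring genes. At chr2:32480174-32511624, 5 regions of 1.75 to 2.5 kb were assigned to Ak1, an adenylate kinase, and the 3.75 kb region at the far end was assigned to Eng, the endothelial co-receptor for TGF-beta and BMP9, and to the gene model AL772271.5. The Eng region held 1924 reads per kb (1880 to 1969), and the 5 Ak1 regions together held 964 (945 to 983). The levels along this chain were thus unequal, with the region assigned to the endothelial gene above the mean of the others.

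There were 3 other chains of 6 regions. Ndst1 had 6 regions in its chain of 52.95 kb on chromosome 18 and its remaining region in a nearby chain with Synpo, a podocyte and neuron actin regulator, at a level of 936 reads per kb (922 to 949). Pcdhga11 had all of its 5 regions in a chain of 44.7 kb that ended in a region of Diap1, a formin that builds actin filaments. Pcdhga11 stood at 977 reads per kb (962 to 992). The last of them belonged to the gene ENSMUSG00000059248 at chr11:117166735-117202035, whose symbol appears in the table as a number. It had 6 of its 8 regions there, at 1024 reads per kb (1011 to 1037).

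Of the 24 chains with 5 or more regions, 16 shared a single gene throughout. Plec, the cytoskeletal linker plectin, had all 5 of its regions in a chain of 22.45 kb on chromosome 15, at 1544 reads per kb (1519 to 1570), and 1 of them was also assigned to a U6 entry. Pik3cb, the p110-beta subunit of PI3-kinase, had 5 of its 6 regions in 23.95 kb on chromosome 9, at 808 reads per kb (792 to 825). The repressor E2f6 had all 5 in 23.95 kb on chromosome 12, at 655 (640 to 671). In another chain, 3 regions belonged to Bcl9l, a co-activator of beta-catenin, and 2 to C030014I23Rik, so no gene was shared throughout. This chain spanned 18.9 kb on chromosome 9, at 973 reads per kb over all 5 regions (953 to 992). These chains were alike in number of regions and span, while the levels given for the chains or their genes ranged from 655 to 1544 reads per kb.

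**Figure D2:**
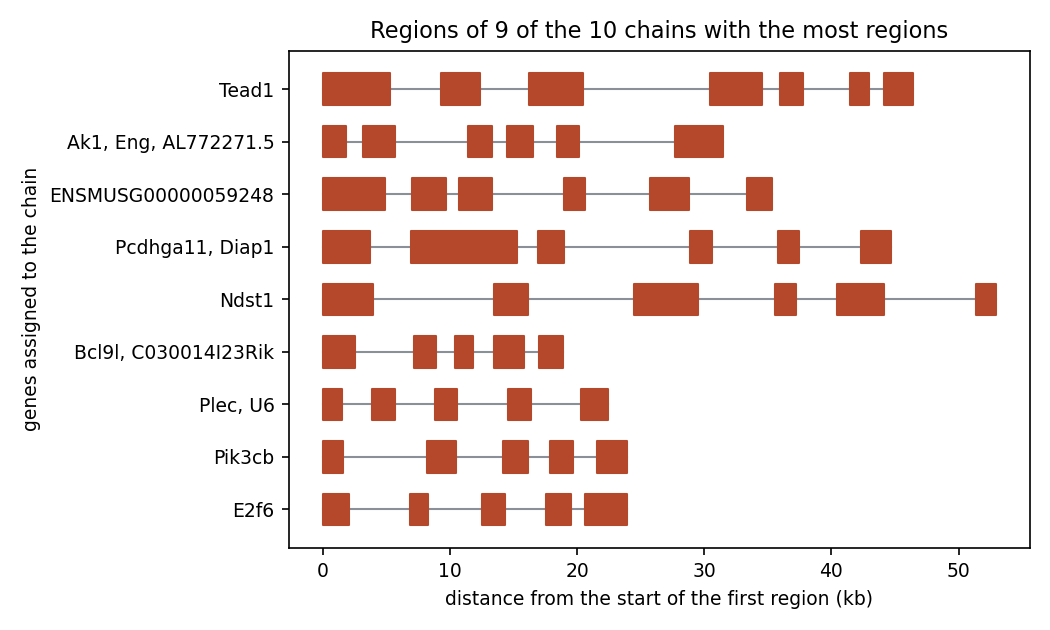
Positions of the regions in 9 of the 10 chains with the most regions, as distance in kb from the start of each chain; each bar is 1 region drawn to scale. Tead1 has 7 regions, 4 chains have 6 and the others shown have 5, and gaps within a chain are 9.95 kb or less.

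The most tightly packed chains held 3 regions each, all of them assigned to 1 protein-coding gene per chain. The Pitpnm2 chain had 0.392 regions per kb of span. Rad51l1, a recombination gene, followed with a span of 8.6 kb, then the chromatin reader Zmynd8 with 9.0 kb, the HIF prolyl hydroxylase Egln3 with 9.3 kb, and Smad3, the signal transducer of TGF-beta receptors, with 10.0 kb.

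Some genes drew several chains. Of the 354 chain genes, 12 had regions in 2 or more chains, and besides Tead1 and Ndst1 they included Mylk, Zmiz1, Ahnak, Frmd4a, Msi2, Pvt1, Mtss1 and Ctif. The gene model AC114005.5 on chromosome 8 had 59 regions, 16 of them in 5 chains, and was the only gene assigned to 3 of those. Most chains stood alone, with a median of 1545 kb to the nearest other chain, and 20 of 258 (7.75%) had another within 50 kb.

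On chromosome 9, 4 chains lay within 384.95 kb of one another in a stretch that takes in Smad3 and Smad6. These genes encode related proteins of the TGF-beta family pathways. Smad3 passes the signal of TGF-beta receptors to the nucleus and Smad6 inhibits BMP signalling. Between chr9:63559201 and chr9:63944151, a stretch of 384.95 kb held 16 regions, of which 14 fell in 4 chains. The Smad3 chain came first with 3 regions in 10.0 kb. The Smad6 chain began only 219.2 kb from the start of the stretch, with 5 regions of 1.45 to 4.2 kb in 38.5 kb. Beyond it, 2 more Smad6 regions lay outside any chain. The remaining chains held 3 regions each and were assigned to the gene model 1110036E04Rik with a 5S_rRNA entry, and to 1110036E04Rik with Lctl. Regions covered 49.45 kb, or 12.8%, of the stretch. Smad6 stood at 884 reads per kb (871 to 896), Smad3 at 892 (872 to 912) and 1110036E04Rik at 888 (873 to 902), so these 3 levels lay within each other's counting intervals. This stretch was singled out after its values were seen.

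**Figure D3:**
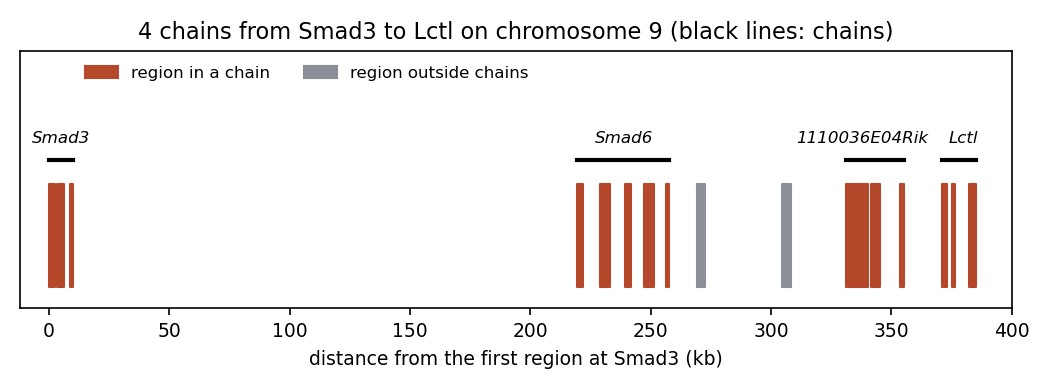
The 16 regions of the Smad3 to Lctl stretch of chromosome 9, as distance in kb from its start and drawn to scale, with the 14 regions in chains in red, the 2 outside in grey, and black lines over the 4 chains. The Smad3 chain spans 10.0 kb and the Smad6 chain 38.5 kb.

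Of all 4539 protein-coding genes with an autosomal region, 289 had one in a chain (6.37%, 5.67 to 7.12), and the lists below are set beside that share. Of 24 endothelial genes with an autosomal region, 3 were in chains, or 12.5% (2.66 to 32.4), an interval that includes the share of all protein-coding genes. Besides Eng in the chain with Ak1, these were Tal1 and Fli1. Tal1, a transcription factor that blood formation requires, had both of its regions, of 5.0 and 7.15 kb, in a chain at chr4:114719559-114748959 that began with a region of its neighbour Stil. Tal1 stood at 1513 reads per kb (1491 to 1535) and Stil at 1058 (1017 to 1100). Fli1, an ETS factor of endothelium and blood, had 3 of its 5 regions in a chain at 663 (653 to 673). Of 12 blood transcription factors, 2 were in chains, or 16.7% (2.09 to 48.4), which also includes it. These were the ETS repressor Etv6, with 4 of 8 regions at 626 (618 to 635), and the homeobox gene Meis1, with 3 of 4 regions at 735 (720 to 751).

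Among basement membrane and matrix genes, which build the sheet under the endothelium, 5 of 23 were in chains, or 21.7% (7.46 to 43.7), beside 6.37% of all protein-coding genes. Of the 23, 7 had 3 or more regions, against 570 of all 4539 protein-coding genes. The shares are not matched for number of regions. Col4a1, the main collagen of basement membranes, had 5 of its 7 regions at chr8:11251898-11281048. One of them was 11.0 kb wide, and together they covered 79.8% of the chain. Col4a1 stood at 1379.5 reads per kb (1366 to 1393), above the 1140.1 (1122 to 1159) of Sparc and the 1120.1 (1107 to 1133) of Hspg2. Sparc, a collagen-binding secreted protein, and Hspg2, the proteoglycan perlecan, each had all 4 of their regions in a chain. Lamc1, a laminin chain, had 4 of 5 regions in a chain and a lower level, 665 (651 to 680).

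For focal adhesion and migration genes, 6 of 31 were in chains, or 19.4% (7.45 to 37.5). Of the 31, 12 had 3 or more regions, so this share is likewise not matched for number of regions. The actin cross-linker Actn4 had all 4 of its regions in a chain, at 721 reads per kb (703 to 738), and the tensin Tns3 4 of 5, at 668 (653 to 683). The docking protein Bcar1 had all 3, at 1167 (1141 to 1194), and the kindlin Fermt2 3 of 5, at 742 (726 to 759). Bcar1 was thus the highest of these 4. Integrins gave 2 of 13, or 15.4% (1.92 to 45.4). These were Itgb5 at 648 (633 to 664) and Itgb6 at 626 (611 to 642), each with 3 of 4 regions in a chain. Guidance genes gave 2 of 21, or 9.52% (1.17 to 30.4). The intervals of integrins and guidance genes include the 6.37% of all protein-coding genes. The semaphorin Sema6a had 5 of its 6 regions in a chain of 32.65 kb at a low 497 (487 to 508), and the arteriovenous receptor Ephb4 had its single region at 1988 (1933 to 2045).

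Signalling genes in chains came from 3 lists. Of 21 TGF-beta and BMP genes, 3 were in chains, or 14.3% (3.05 to 36.3). These were Smad6, Smad3 and Acvrl1. Acvrl1, the endothelial receptor ALK1, had all 4 of its regions in a chain, at 648 reads per kb (632 to 664). Of 16 Hippo and YAP/TEAD genes, 3 were in chains, or 18.75% (4.05 to 45.6). Besides Tead1 these were the angiomotin Amotl2, with all 3 regions at 849 (827 to 871), and Jub, the LIM protein Ajuba that binds LATS kinases, with 1 region at 2046 (1976 to 2117). Of 12 Notch genes, only Nrarp, a feedback inhibitor of the pathway, was in a chain, with 2 of 3 regions at 686 (664 to 708). The Notch share was 8.33% (0.211 to 38.5). The intervals of these 3 lists include the 6.37% of all protein-coding genes.

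Among genes of other cell types, Hand2, a heart and limb transcription factor, was the 1 of 11 heart muscle genes in a chain, with all 3 regions at 1160 reads per kb (1138 to 1183). The heart muscle share was 9.09% (0.230 to 41.3). Of 13 smooth muscle and mesenchymal genes, 2 were in chains, or 15.4% (1.92 to 45.4). The intervals of both lists include the 6.37% of all protein-coding genes. Myosin light chain kinase, Mylk, had 6 of 7 regions in 2 chains at 984 (966 to 1001), and caldesmon, Cald1, had 3 of 9 in a chain at 648 (639 to 657). None of 5 neuronal, 2 hepatocyte and 4 ribosomal protein genes with an autosomal region was in a chain. Counts this small allow shares of up to 52.2, 84.2 and 60.2% in that order.

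Over the 14 lists, with each gene counted once, 30 of 207 genes with an autosomal region were in chains, or 14.5% (10.0 to 20.0). List genes also had more regions, with a median of 2, against 1 for all protein-coding genes, and a gene needs several close regions to fill a chain by itself. Among genes with 3 or more regions, 26 of 59 list genes were in chains (44.1%, 31.2 to 57.6), and 206 of 570 protein-coding genes (36.1%). The interval of the first share includes the second. The lists were chosen with earlier results of these data known, so these shares are descriptions.

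Chains mostly belonged to single genes. In 202 of 258 chains (78.3%) 1 gene was assigned to every region, and 174 had only 1 gene. With the gene model AC114005.5 left aside, 198 chains (76.7%) shared a gene. The rule picks close neighbours, and this sharing was not compared with that of regions further apart. Of the 354 chain genes, 212 (59.9%) had all of their regions in 1 chain, and 96 (27.1%) entered a chain by 1 region only. Protein-coding genes made up 81.6% of chain genes and 82.1% of the other autosomal genes. No protein-coding gene was assigned to 22 chains, 1 was assigned to 186, and 1 chain on chromosome 17, in the gene-rich major histocompatibility complex, carried 9 genes from Msh5 to Ly6g6f. Chain regions carried more than 1 gene in 54 of 876 cases (6.16%), and the other autosomal regions in 600 of 6819 (8.80%).

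Gene length differed in direction with the set compared. RefSeq lengths were found for 274 of 289 protein-coding chain genes (94.8%), with a median of 49.6 kb, against 34.6 kb in 4085 other protein-coding autosomal genes. Among genes with 3 or more regions the median length was 86.1 kb in 197 chain genes and 130.1 kb in 361 other genes. The 76 chain genes of this kind whose regions all lay in 1 chain had a median of 42.7 kb. The part of gene length in the presence of chains was not tested.

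Of the 22 chains without a protein-coding gene, the longest ran over 42.55 kb on chromosome 11. Its 5 regions were assigned to 2810410L24Rik, Gm11770 and 2900052L18Rik and held 1529 reads per kb (1511 to 1547). A chain of 33.05 kb on chromosome 2 carried Gm13444, Gm13445 and Gm13447 at 723 (709 to 738), and lay 12.75 kb from a chain at Ggta1, a galactosyltransferase gene. A chain of 31.65 kb on chromosome 12 was assigned to a 7SK entry, a small RNA name that several gene models carry, at 807 (793 to 821). Gm5535 had a chain of 28.25 kb on chromosome 2 at 707 (692 to 722), and the chain of 1110036E04Rik and 5S_rRNA lay in the stretch around Smad6. Over the 13 such chains whose reads could be worked out, the median was 685 reads per kb, against 885 over 102 chains with a protein-coding gene.

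Reads for a whole chain could be worked out for 115 of 258 chains (44.6%), those where the gene counts determined the sum over the chain's regions. Their median was 849 reads per kb (quartiles 687 and 1046), and 84 of the 115 lay above the median of the other autosomal genes. The highest was a chain of St3gal2, a sialyltransferase, with Gm17642 and SNORA57 on chromosome 8, at 2012 reads per kb (1989 to 2036) over 27374 reads. The chain of Jub and 4931414P19Rik on chromosome 14 followed at 1731 (1699 to 1764), with 2046 at Jub and 1624 at 4931414P19Rik. The chains of Plec at 1544, of 2810410L24Rik at 1529 and of Slc12a9, a transporter gene, with Ephb4 at 1507 (1478 to 1536) came next. In the last of these the Ephb4 region exceeded the chain's mean. The lowest chain lay in Bnc2, a zinc finger gene, at 169 (158 to 181) over 898 reads. The 31 chains with no shared gene had a median of 1034, against 804 for the 84 that shared 1 gene.

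In 8 of the 258 chains every region had a read count that could be worked out, and these regions did not all carry the same level. The highest region of a chain stood above the lowest by a factor of 1.37 to 3.98, with a median of 1.81. A chain with only 1 gene gives only its sum, so none is among the 8. The factor was 2 or more in 3 of the 8. In the Gata3 chain, the widest region, of 8.9 kb, had 644 reads per kb (628 to 661), below the 1226 (1174 to 1279) and 996 (955 to 1038) of the narrower regions beside it. In the chain on chromosome 8 around Junb, an AP-1 transcription factor, the Prdx2 and Rnaseh2a region had 1387 (1358 to 1417), the Junb region 1009 (969 to 1051) and the Hook2 region 1292 (1249 to 1337). The chain on chromosome 17 ran from 1804 (1768 to 1841) at Msh5, a meiotic recombination gene, through 953 (912 to 995) at Clic1 and 453 (437 to 470) at the region of Ddah2, to 1158 (1128 to 1190) at the Ly6g6d region. The widest region was the highest in 2 of the 8 chains.

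Genes in chains had higher reads per kb than other autosomal genes. The median was 837 (quartiles 677 and 1029) in 354 chain genes and 694 (quartiles 533 and 931) in 5175 other autosomal genes, and the quartile ranges overlapped widely. Over all autosomal genes the median was 683 with 1 region, 740 with 2 and 756 with 3 or more, while the upper quartiles were 942, 958 and 933. Among genes with 1 or 2 regions the median was 945.5 in 126 chain genes and 687 in 4782 other genes, so within chain genes those with fewer regions had the higher median. With both sides limited to genes with 3 or more regions, a comparison chosen after seeing the data, the medians were 794 (n = 228) in chain genes and 742 (n = 393) in other genes. The difference was then 51.9 reads per kb, against 143 over all genes. Only 81 of 876 chain regions had a read count of their own, with a median of 953 reads per kb, against 675 for 3634 of the 6819 other autosomal regions. None of the 81 lay in a chain with only 1 gene, since such a gene gives only the sum of its regions. The 81 are thus a selected part of the chain regions. Since the reads also served to call the regions, no test was made.

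**Figure D4:**
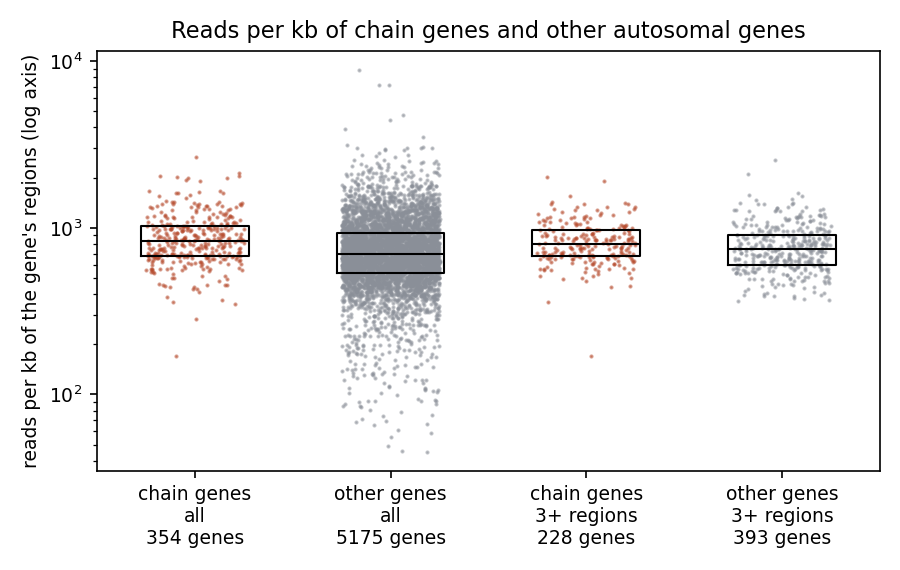
Reads per kb of region on a log axis for chain genes and other autosomal genes, over all genes and over genes with 3 or more regions; points are genes, boxes are quartiles with the median. The medians are 837 and 694 over all genes, and 794 and 742 over genes with 3 or more regions.

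Chains were present on all 19 autosomes, and the chain genes had the higher median on each of the 19. These medians were not limited to genes with similar numbers of regions, and genes that share a region each count. They rest on as few as 8 chain genes, on chromosome 16. On chromosome 19 they were 707 in 10 chain genes and 692 in 141 other genes, and no test was made. The share of a chromosome's regions that lay in chains was highest on chromosome 18, with 51 of 252 (20.2%, 15.5 to 25.7), and on chromosome 9, with 71 of 410 (17.3%, 13.8 to 21.3). It was lowest on chromosome 10, with 16 of 377 (4.24%, 2.44 to 6.80). The regions of a chain enter these counts together, so the intervals are too narrow, and the shares are a description of the chain rule. Chromosome 2 had the most chains, 26, followed by chromosome 11 with 25 and chromosome 9 with 21. On chromosome 8 the levels of both sets were high, with a median of 1198 reads per kb in 22 chain genes and 948 in 248 other genes.

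**Figure D5:**
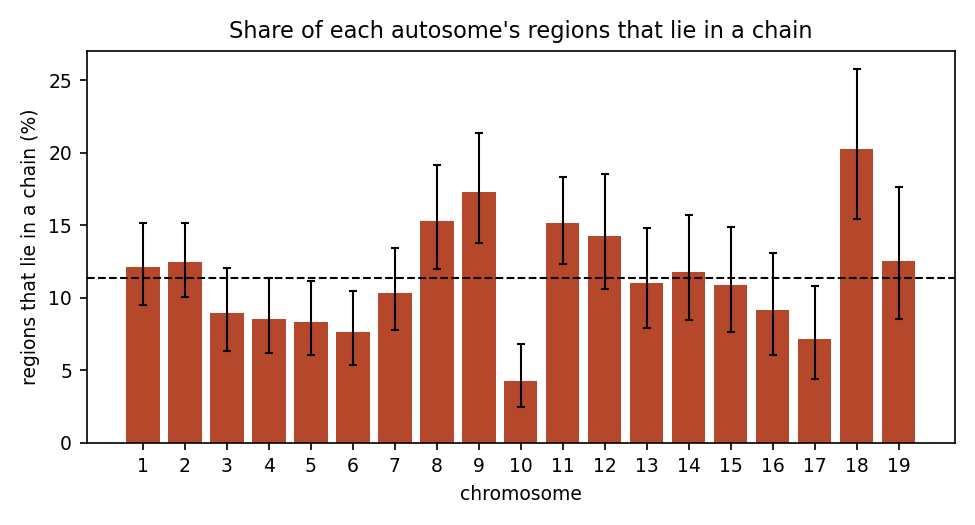
Share of autosomal regions that lie in chains, in percent, for each of the 19 autosomes; error bars are 95% Clopper-Pearson intervals, which cover counting error only, and the dashed line is the share over all autosomes, 11.4%. Chromosome 18 is highest at 20.2% and chromosome 10 lowest at 4.24%.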

How the data were processed

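Libraries were made by a DamID protocol and sequenced as barcoded SOLiD libraries, per the labels' protocols, and positions are on mm9, a build named in the submitters' processing notes. The sources used here do not say how reads were aligned, how regions were called and assigned to genes, or how the Dam libraries entered. A single table was deposited, holding for each gene a read count, per the file headers, and a signal, the read count per kilobase. The deposited signal equalled the reads divided by the total length of a gene's regions within 0.005. There were 0 other columns of values per sample, so no comparison between the lines, no paired fit and no replicate error could be had.

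Peak positions were split at semicolons, sorted by start on each autosome and chained where the gap was 10 kb or less. Runs of 3 or more were kept. The reads of a chain or region were worked out from the gene sums where these determine them, with a misfit of 0. Shares have Clopper-Pearson and reads have Poisson intervals, both at 95%, which cover counting error only, since amplified reads are not independent molecules. The chaining and the recovery of reads were tested on simulated data. Python 3.11.15 with numpy 2.4.6, pandas 2.3.3, scipy 1.17.1 and matplotlib 3.10.9 was used. RefSeq tables of GRCm38.p6 gave gene lengths, synonyms and promoters only, matched by symbol, or by synonym on the same chromosome.

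The members, the 14 gene lists and the rules were chosen with earlier results of these data known. Genes were named from the 10 chains with the most regions, the 5 most densely packed, the 5 with the most reads per kb among chains with known reads, up to 4 members of each list, up to 5 chains without a protein-coding gene, and the 3 gaps on each side of 10 kb. The values of 1 of the first 10 chains are not reported here. The alternatives were gaps of 5 and 20 kb, chains of 2 or 4 regions, merging regions within 1 kb, protein-coding genes alone, the sex chromosomes included, regions above the lower quartile, regions with their own count, and division by the chromosome median. Genes with 3 or more regions on both sides, and the table without the gene model AC114005.5, were added after seeing the data.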

Additional observations from a re-analysis of the deposited data

How the results depend on the processing

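No paired analysis was possible because the table gives no value per library, and no library could be left out. With gaps of up to 5 kb there were 101 chains with 331 regions, a median span of 15.1 kb and 135 genes. The difference of median reads per kb, chain genes minus other autosomal genes, was then 77.8, and the share of list genes in chains 5.31%, beside 2.53% of all protein-coding genes at that setting. With gaps of up to 20 kb there were 462 chains with 1724 regions, a median span of 29.5 kb, 783 genes and a list share of 26.1% beside 14.3%. Counting runs of 2 regions gave 996 chains with 2352 regions, 11.4 kb, 1248 genes and 39.6% beside 22.8%. Requiring 4 regions gave 72 chains with 318 regions, 27.35 kb, 110 genes and 6.28% beside 1.87%. Under the last 3 of these settings the difference of medians was 124 to 164, beside the reported 143. It was 71.9 with regions above the lower quartile of reads per kb. Over regions with their own read count, which leave out every chain with only 1 gene, it was 277. It was 51.9 with both sides limited to genes with 3 or more regions, which was chosen after seeing the data. With levels divided by the chromosome median it was 0.188 on that scale. No setting turned the sign of the difference between chain genes and other autosomal genes. Among the list genes the order was the other way. Their median was 739 reads per kb in the 30 in chains and 759 over all 207, the 30 included. With 3 or more regions it was 703 in the 26 list genes in chains and 770 over all 59. Single lists went in both directions, and no test was made. Merging close regions, protein-coding genes alone, the sex chromosomes and leaving out AC114005.5 left between 228 and 262 chains. Changing the gap or the run length changes by definition which regions are chained. The cause of the shifts in list share and in levels was not tested. Depth per library is unknown, and the difference cannot be told apart from the calling of regions on the same reads.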

Other observations

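Chains also held genes outside the lists, and those named here were chosen after their values were seen. The tetraspanin Cd9 had all 3 of its regions in a chain at 1056 reads per kb (1035 to 1078), and the tetraspanin Tspan14 all 3 in a chain of 45.45 kb at 907 (896 to 917). The histone deacetylase gene Hdac7 had all 3 of its regions in a chain at 1301 (1278 to 1324). The apelin receptor gene Aplnr, known from early vessels, had both of its regions in a chain at 763 (748 to 778). The homeobox gene Hlx had all 3 regions in a chain at 844 (820 to 869), and Nfatc1, a transcription factor of endocardium, 3 of 5 at 761 (747 to 775). The hyaluronan receptor gene Cd44 had 3 of 4 regions in a chain at a lower level, 479 (464 to 495). These values carry no replicate error and were not tested.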
